A study of Mus musculus with 3 samples.

Results

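Cytosolic ribosomal protein genes encode the proteins of the large and the small subunit of the cytosolic ribosome, and their binding by CTCFL was examined in mouse ES cells. The group was chosen by name alone. It took protein-coding genes of the GENCODE annotation on mm9 with the symbol Rpl or Rps followed by a number, with or without a final a, l, x or y, together with Rplp0, Rplp1, Rplp2 and Rpsa. The names fitted 80 genes, of which Rpl10l, a copy with a single exon, was left out. The remaining 79 genes among 22359 protein-coding genes comprised 44 of the large subunit, 32 of the small subunit and 3 of the stalk, the flexible arm of the large subunit.

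The ES cells carried the tetracycline activator rtTA at ROSA26 and a transgene, CTCFL_V5_GFP, in which mouse CTCFL with a V5 and a GFP tag stands under a tetracycline-responsive promoter. In the ES_CTCFL_V5_DOX sample, cells were given doxycycline for 3 days and sorted for GFP, and ChIP-sequencing was done with the V5 antibody. The ES_CTCFL_V5_NODOX control was the same line without doxycycline, not sorted, with the same antibody, so that the samples differ in both induction and sorting. Clones were selected with G418, and the labels do not name the one used. CTCFL in these cells comes from the transgene, and endogenous CTCF is present beside it. There was 1 library per condition and the list of binding sites holds positions only, so depth is unknown, the spread between replicates cannot be given, and no test between groups was made. Whether the cells carried the markers of ES cells cannot be seen from a list of positions. The list for the induced cells held 7436 CTCFL peaks with a median width of 454 bp. Ranges in parentheses after a share are 95% Wilson confidence intervals, which cover counting error only.

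Ribosomal protein genes are spread over the genome, yet their products are needed in near-equal amounts. They are among the most strongly transcribed genes of growing cells, and most have short, CpG-rich promoters without a classical TATA box. Their transcripts begin with a C followed by a run of pyrimidines, the TOP motif, through which their translation responds to growth signals. Many also carry snoRNAs in their introns and have left processed pseudogene copies across the genome. CTCFL, also known as BORIS, is the germ cell paralog of CTCF and has nearly the same zinc fingers.

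A CTCFL peak lay at the start of 14 of the 79 genes (17.7%, 10.9 to 27.6%), where a peak was counted when its midpoint was within -2 kb to +1 kb of the transcription start site (TSS) of a protein-coding transcript. The same was found for 11.2% of all protein-coding genes, and this value lies inside the interval of the ribosomal protein genes. Genes with a CpG-rich start are the closer comparison, because 62 of the 79 genes (78.5%) had such a start against 43.0% of all protein-coding genes. A start was called CpG-rich when the GC content was at least 55% and CpG was at least 0.6 of its expected number in 500 bp on either side of a TSS. Of all genes with such a start 18.9% had a peak, and of the ribosomal protein genes with such a start 16.1% (10 of 62, 9.004 to 27.21%). Among starts that are not CpG-rich the shares lay apart. Of the other 17 ribosomal protein genes 4 had a peak (23.5%, 9.56 to 47.3%), namely Rpl23a, Rpl32, Rpl36a and Rps26, against 697 of 12754 protein-coding genes without a CpG-rich start (5.46%, 5.08 to 5.87%). The latter value lies below the interval of the 17 genes, which rests on 4 bound genes, and the difference was not tested. The sets also differ in CpG content. The median ratio of observed to expected CpG was 0.771 in the 17 genes and 0.291 in the 12754 genes. All 4 bound genes passed the limit of 0.6 and missed only that of 55% GC, Rpl32 with 54.95%.

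**Figure D1:**
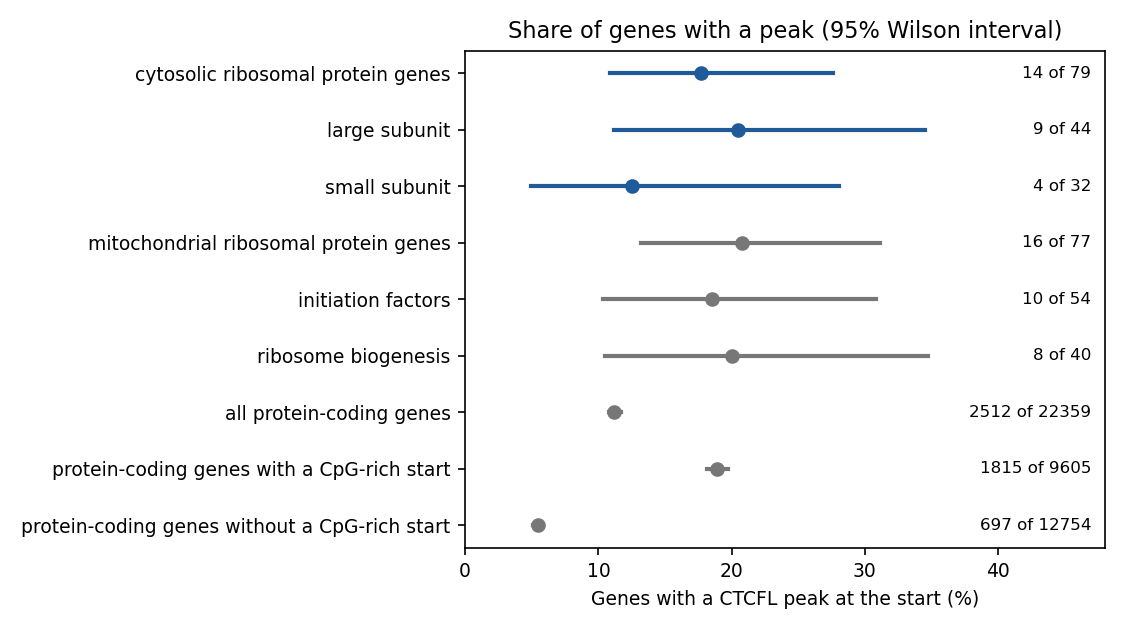
Share of genes with a CTCFL peak at the start (x axis, in %) for ribosomal protein genes (blue) and for other groups (grey), with points for the share, lines for 95% Wilson intervals and the counts at the right. The interval around 14 of 79 ribosomal protein genes covers both 11.2% (all protein-coding genes) and 18.9% (genes with a CpG-rich start).

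The bound genes included Rpl5, Rpl7, Rpl10a, Rpl23a, Rpl24, Rpl26, Rpl32, Rpl36a and Rpl37 of the large subunit, Rps20, Rps26 and Rps27l of the small subunit, and Rplp0 of the stalk. Each had 1 peak at its start, and they lay on 12 chromosomes. For the large subunit this was 9 of 44 genes (20.5%, 11.2 to 34.5%) and for the small subunit 4 of 32 (12.5%, 4.97 to 28.1%), so that the intervals overlap over most of their length. Of the stalk genes 1 of 3 was bound.

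To see the sequence that lies under these peaks, a CTCFL consensus was searched on both strands of each peak. It was read from the tallest letters of the study's CTCFL motif and has 14 positions, of which 10 are fixed. Positions are counted from 1 at its 5′ end, and a substitution gives the base of the consensus first. The study's motif came from its own CTCFL-binding sites in ES cells. A higher share of sites under peaks than elsewhere is therefore no independent support for binding. The sites with at most 1 mismatch are shown because they are the closest matches to the consensus under these peaks. Whether CTCFL contacts these sites was not measured. They are written 5′ to 3′ on the strand of the site, with the site in capitals and up to 15 flanking bases outside exons in lower case. The Rpl7 site lies in an exon of Rdh10 and is shown alone, and it carries every fixed base of the consensus.
Rpl7 (chr1:16095862-16095875, strand +): CCAGCAGGAGGCGC
Rpl5 (chr5:108329469-108329512, strand +): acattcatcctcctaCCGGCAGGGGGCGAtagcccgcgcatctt
Rpl10a (chr17:28465379-28465415, strand +): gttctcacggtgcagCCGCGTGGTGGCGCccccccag
Rpl23a (chr11:77996734-77996777, strand -): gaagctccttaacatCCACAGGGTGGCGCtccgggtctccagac
Rpl32 (chr6:115759065-115759108, strand -): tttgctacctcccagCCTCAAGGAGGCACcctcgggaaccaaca
Rpl37 (chr15:5066474-5066517, strand -): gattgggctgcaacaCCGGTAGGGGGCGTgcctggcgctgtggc
Rplp0 (chr5:116009311-116009354, strand -): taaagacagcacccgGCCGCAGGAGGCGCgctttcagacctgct
Rps26 (chr10:128063955-128063998, strand +): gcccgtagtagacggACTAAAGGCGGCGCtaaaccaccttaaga

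The only exact match lay in the Rpl7 peak. The other sites differed from the consensus by C14A in Rpl5, A6T in Rpl10a, A6G in Rpl23a, G13A in Rpl32, C14T in Rpl37, C1G in Rplp0 and C1A in Rps26. No single position carried the mismatch in most of these genes. In all, 9 of the 14 peaks held a site (64.3%, 38.8 to 83.7%), against 53.6% of the 2344 CTCFL peaks at protein-coding starts and 43.9% of the whole list. In 28 windows of the same width placed 2 kb to either side of the 14 peaks, 0 held a site. This allows a share of up to 12.1% by the Wilson interval. The windows were not matched to the peaks for GC or CpG content. The part of base composition in this contrast was not tested.

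The other 5 peaks had no site at up to 1 mismatch, and their best matches are given to show how far they are from it. The Rpl24 match lay in an exon and is shown without flanks.
Rpl24 (chr16:55974054-55974067, strand -): CCTGTGGTGGGCGC
Rpl26 (chr11:68714952-68714995, strand +): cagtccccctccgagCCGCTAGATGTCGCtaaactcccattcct
Rpl36a (chrX:131120092-131120135, strand +): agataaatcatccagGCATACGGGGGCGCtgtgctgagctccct
Rps20 (chr4:3762883-3762926, strand -): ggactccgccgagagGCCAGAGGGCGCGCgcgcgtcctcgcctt
Rps27l (chr9:66793553-66793596, strand -): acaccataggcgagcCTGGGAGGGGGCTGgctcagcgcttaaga

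These matches carried A6G and G8T in Rpl24, G8A and G11T in Rpl26, C1G and A6C in Rpl36a, and C1G and G10C in Rps20. The Rps27l match had 3 mismatches, C2T, G13T and C14G. With 2 mismatches allowed, 13 of the 14 peaks held a match (92.9%), as did 91.3% of all peaks at protein-coding starts and 7 of the 28 neighboring windows.

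The bound starts of the large subunit were headed by Rpl5, whose product forms a complex with Rpl11 and binds Mdm2 when ribosome assembly is disturbed. Its peak (chr5:108329208-108329795, 588 bp) had its midpoint at -20 bp from the TSS, and the site lay at -31 bp, 11 bp from the midpoint. The Rpl5 peak was the widest of the large subunit and ranked 1643 of the 7436 peaks by width.

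At Rpl10a the peak (chr17:28465253-28465627, 375 bp) had its midpoint at 24 bp downstream of the TSS, in an exon, and its site was centered upstream of the TSS, at -16 bp. At Rpl26, whose product lies near the exit of the peptide tunnel, the peak (chr11:68714710-68715269, 560 bp) was centered at -96 bp. At Rpl36a, the single bound member on the X chromosome, the peak (chrX:131119943-131120268, 326 bp) was centered at -88 bp and was the narrowest of the 14. All of these peaks spanned the TSS.

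The Rpl37 peak (chr15:5066168-5066689, 522 bp) reached across the TSS from a midpoint at -185 bp, with its site at -118 bp. The Rpl32 peak (chr6:115758883-115759328, 446 bp) lay wholly upstream, with the midpoint at -340 bp and the site at -321 bp. At Rpl24, which takes part in a bridge between the subunits, the peak (chr16:55973873-55974213, 341 bp) was centered 126 bp downstream of a TSS, in an exon. This TSS (chr16:55973917) lies inside the annotated gene, which begins at 55966388. With the most upstream TSS of each gene alone, Rpl24 was not bound and 13 of the 79 genes had a peak (16.5%).

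Rpl23a, whose product sits at the mouth of the peptide tunnel, differed in that its peak (chr11:77996491-77997013, 523 bp) began 73 bp downstream of the TSS and had its midpoint in an intron, 334 bp into the gene. The site lay 3 bp from that midpoint. The start of Snord42b, a snoRNA gene, was 126 bp from the midpoint.

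The Rpl7 peak lay at the start of a neighboring gene. It was found at chr1:16095656-16096096 (441 bp), with the midpoint at -1133 bp from the nearest Rpl7 TSS but only 21 bp from the TSS of Rdh10, a retinol dehydrogenase of the retinoic acid pathway. Its exact match was 8 bp from the midpoint. At the other 13 genes no TSS of another protein-coding gene was nearer to the peak, and the next closest was that of Btk, 2426 bp from the Rpl36a peak.

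Among the genes of the small subunit, Rps26 is, like Rpl5, a gene in which mutations cause Diamond-Blackfan anemia. The Rps26 peak (chr10:128063647-128064305, 659 bp) ended upstream of the TSS, at -85 bp, and its site at -414 bp coincided with the midpoint (0 bp). The Rps20 peak (chr4:3762742-3763089, 348 bp) was centered at -103 bp and spanned the TSS.

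The Rps27l peak (chr9:66793307-66793711, 405 bp) was centered at -384 bp and ended at -182 bp. Rps27l is a paralog of Rps27 that responds to p53. The peak nearest to Rps27 itself was 6676 bp from its TSS.

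Rplp0, the base of the stalk that recruits elongation factors, had the widest peak of the group (chr5:116008973-116009651, 679 bp, rank 781). Its midpoint was at -164 bp and its site at -144 bp. Rplp1 and Rplp2, which bind to Rplp0 as dimers, had no peak at their starts, and the nearest peaks were 3841 and 13829 bp away.

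**Figure D2:**
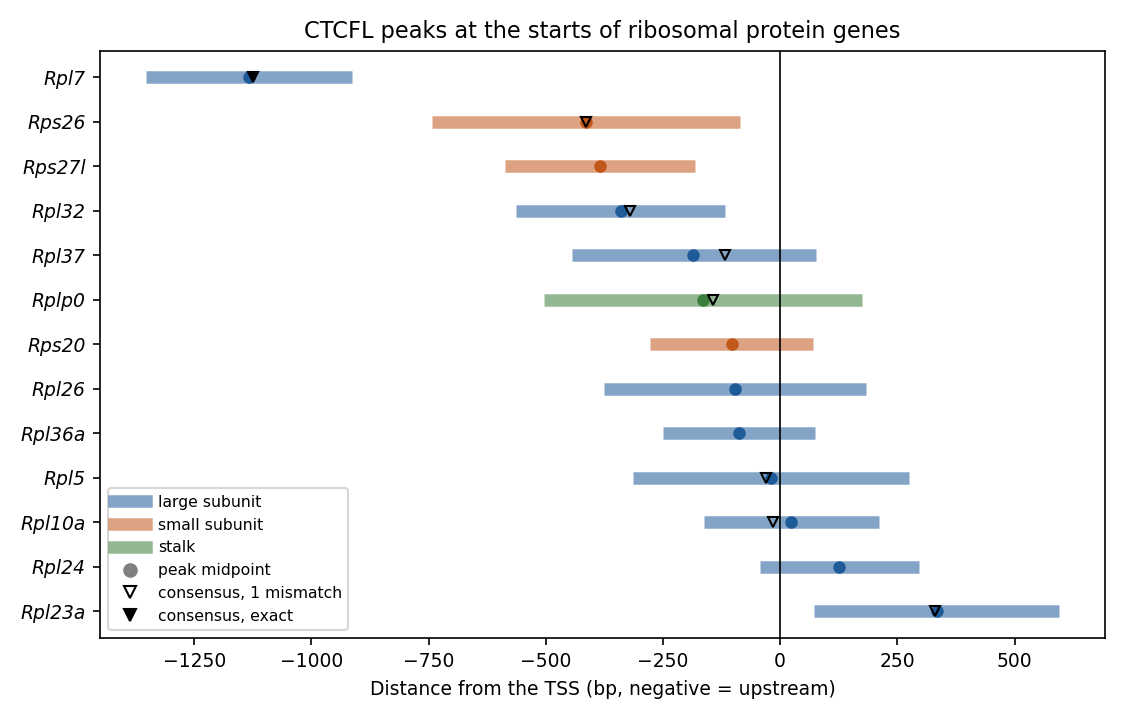
CTCFL peaks at 13 bound ribosomal protein genes, with the distance from the nearest TSS in bp on the x axis (negative is upstream). Bars span the peak, dots mark its midpoint and triangles mark consensus sites with 1 mismatch (open) or none (filled), and 8 of the 13 bars cross the TSS.

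Together the midpoints lay between -1133 and 334 bp from the TSS with a median of -99.5 bp. Of the 14, 11 were upstream and 3 downstream, and 9 (64.3%, 38.8 to 83.7%) were within 200 bp of the TSS. The share was 46.5% for all 2512 protein-coding genes with a peak, a value inside that interval. The median distance from the TSS was 145 bp, against 227 bp for all genes with a peak. The peaks themselves were of ordinary width. They ranged from 326 to 679 bp with a median of 484 bp, compared with 515 bp for peaks at protein-coding starts, and 7 of the 14 were wider than the median peak of the list.

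Sequence shared with other places in the genome was more common under these peaks. Because the reads were 36 bp long, every 36-base stretch of each peak was looked up across mm9. All windows were found once in 7 of the 14 peaks, against 88.1% of the peaks at protein-coding starts and 82.0% of the whole list. The lowest shares of unique windows were those of the Rpl5 (75.9%) and Rplp0 (86.3%) peaks. The peaks of Rpl26, Rpl32, Rpl36a and Rpl37 had between 98.8 and 99.8% unique windows. With the fully unique peaks alone, 7 of the 79 genes had a peak (8.86%, 4.36 to 17.2%), against 9.93% of all protein-coding genes. In 5 of the 14 bound genes all windows were also unique in 250 bp on either side of the most upstream TSS. Their median distance from TSS to midpoint was 384 bp, and 2 of the 5 lay within 200 bp. For the other 9 bound genes the median was 103 bp, and 7 lay within 200 bp. The part of repeated sequence in the peak calls and in these distances was not tested.

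The 200 bases before the start are given for 3 bound genes with a site in this stretch, and for Rplp1, which has an exact match there and no peak. They are written 5′ to 3′ on the strand of the gene up to the base before the TSS, with the site in capitals. In Rpl37, Rplp0 and Rplp1 the site is on the opposite strand and its reverse complement is seen.
Rpl5 (chr5:108329321-108329520, strand +): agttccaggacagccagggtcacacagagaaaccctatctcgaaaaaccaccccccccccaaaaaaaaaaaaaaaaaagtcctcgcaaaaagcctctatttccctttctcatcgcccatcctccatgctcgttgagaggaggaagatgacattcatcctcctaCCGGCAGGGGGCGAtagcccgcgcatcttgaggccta
Rpl37 (chr15:5066413-5066612, strand +): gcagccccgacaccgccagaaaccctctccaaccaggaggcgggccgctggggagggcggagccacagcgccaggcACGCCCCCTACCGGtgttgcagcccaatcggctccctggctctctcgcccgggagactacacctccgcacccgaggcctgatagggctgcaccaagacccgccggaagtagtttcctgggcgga
Rplp0 (chr5:116009276-116009475, strand +): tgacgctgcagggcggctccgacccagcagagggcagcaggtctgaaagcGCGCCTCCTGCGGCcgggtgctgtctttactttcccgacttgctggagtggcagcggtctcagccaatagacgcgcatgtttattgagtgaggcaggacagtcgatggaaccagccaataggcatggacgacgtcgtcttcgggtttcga
Rplp1 (chr9:61762346-61762545, strand -): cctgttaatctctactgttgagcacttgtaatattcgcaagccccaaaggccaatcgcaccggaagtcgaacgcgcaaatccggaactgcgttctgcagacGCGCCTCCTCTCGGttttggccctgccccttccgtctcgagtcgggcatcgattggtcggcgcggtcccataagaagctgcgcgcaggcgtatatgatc

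The match of Rplp1 lay at -92 bp from its TSS, a distance in the range of those in the bound genes, and 3933 bp from the nearest peak midpoint. A consensus site with at most 1 mismatch was found in the 200 bp before the most upstream TSS of 5 of the 14 bound genes (35.7%, 16.3 to 61.2%) and of 5 of the 65 others (7.69%, 3.33 to 16.8%). The share among all protein-coding genes was 6.27%. The 5 unbound genes were Rpl13a (-83 bp), Rplp1 (-92 bp), Rpl28 (-97 bp), Rps15a (-108 bp) and Rpl7a (-162 bp). They are shown with their sites, for comparison with those under peaks. The Rpl7a site lies in an exon of Med22 and is shown without flanks.
Rpl13a (chr7:52391849-52391892, strand -): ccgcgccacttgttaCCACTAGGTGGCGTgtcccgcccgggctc
Rplp1 (chr9:61762416-61762459, strand +): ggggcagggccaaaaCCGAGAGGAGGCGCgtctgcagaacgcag
Rpl28 (chr7:4744358-4744401, strand -): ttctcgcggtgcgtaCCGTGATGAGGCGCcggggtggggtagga
Rps15a (chr7:125259787-125259830, strand -): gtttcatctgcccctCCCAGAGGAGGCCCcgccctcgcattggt
Rpl7a (chr2:26766116-26766129, strand -): CCGAGAGGCGGCGG

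The Rpl13a site carried C14T, as did that of the bound Rpl37. The Rps15a site carried G13C. The Rpl28 and Rpl7a sites carried G7T and C14G. Over the wider window from -2 kb to +1 kb, 17 of the 65 unbound genes held a site (26.2%, 17.02 to 37.95%), close to the 26.8% of all protein-coding genes. In the same window 9 of the 14 bound genes held one (64.3%, 38.76 to 83.66%). A match of these letters is thus a description of the sequence and did not by itself mark a peak. Because the motif came from CTCFL-binding sites in ES cells, the higher shares in the bound genes are not independent support.

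No CTCFL peak was present at the start of 65 genes. These were 35 genes of the large subunit, 28 of the small subunit and 2 of the stalk. Rpl3l, the striated muscle paralog of Rpl3, and Rpl39l, a paralog of Rpl39 known from testis, were thus unbound in these ES cells. Because the list gives called peaks only, binding under the threshold of the peak caller cannot be seen.

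The unbound genes closest to a peak lay just outside the interval. At Rps15 the midpoint was 1023 bp downstream of a TSS and at Rps28 1667 bp downstream. At Rps10, Rpl35 and Rps14 it was 2329, 2445 and 2791 bp upstream. Just inside the interval was only the Rpl7 peak at -1133 bp, and all others were within 414 bp of the TSS. The distances of the 65 genes reached 682313 bp at Rpl15, with a median of 21799 bp. Rps2 and Rpl3l, which are neighbors, had the same nearest peak (chr17:24861238-24861553).

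Over all 79 genes the median distance from a TSS to the nearest CTCFL peak was 16603 bp, compared with 35253 bp for genes with a CpG-rich start and 60908 bp for all protein-coding genes. Within 40 kb of a peak lay 58 of the 79 genes (73.4%, 62.8 to 81.9%), 54.5% of the mitochondrial ribosomal protein genes and 41.7% of all protein-coding genes. Within 2 kb lay 16 of the 79 genes (20.3%), 16 of the 77 mitochondrial genes (20.8%) and 2690 of the 22359 protein-coding genes. The cytosolic and the mitochondrial genes thus had like shares at 2 kb, while at 40 kb the share of the cytosolic genes was the higher one. The local density of genes was not taken into account.

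**Figure D3:**
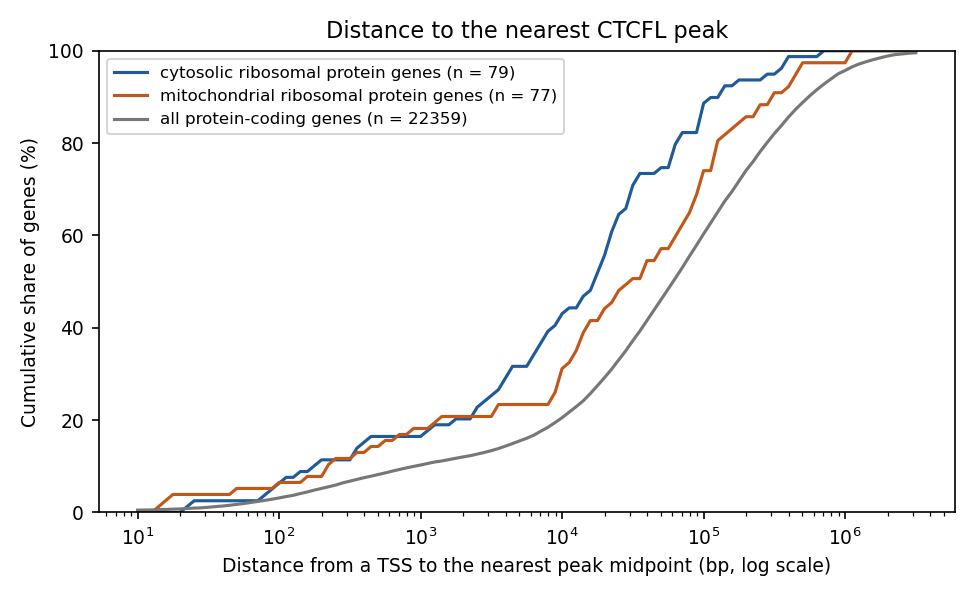
Cumulative share of genes (y axis, in %) by the distance from a TSS to the nearest CTCFL peak midpoint (x axis, in bp on a log scale) for 79 cytosolic ribosomal protein genes, 77 mitochondrial ribosomal protein genes and 22359 protein-coding genes. The line of the cytosolic genes is at 43.0% at 10 kb, where that of all genes is at 20.5%, and at 73.4% at 40 kb, where that of all genes is at 41.7%.

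Features of the genes that the choice by name did not use were compared between the 14 bound and the 65 unbound genes. At the TSS with the highest CpG content, GC had a median of 59.6% in the bound genes (48.95 to 64.24%) and 57.3% in the unbound genes (46.95 to 64.14%). The ratio of observed to expected CpG was 0.83 in the bound and 0.84 in the unbound genes. The GC ranges overlapped almost wholly, and the ratios of the bound genes all lay within the range of the unbound ones. The lowest ratio, 0.19, was that of the unbound Rpl3l.

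**Figure D4:**
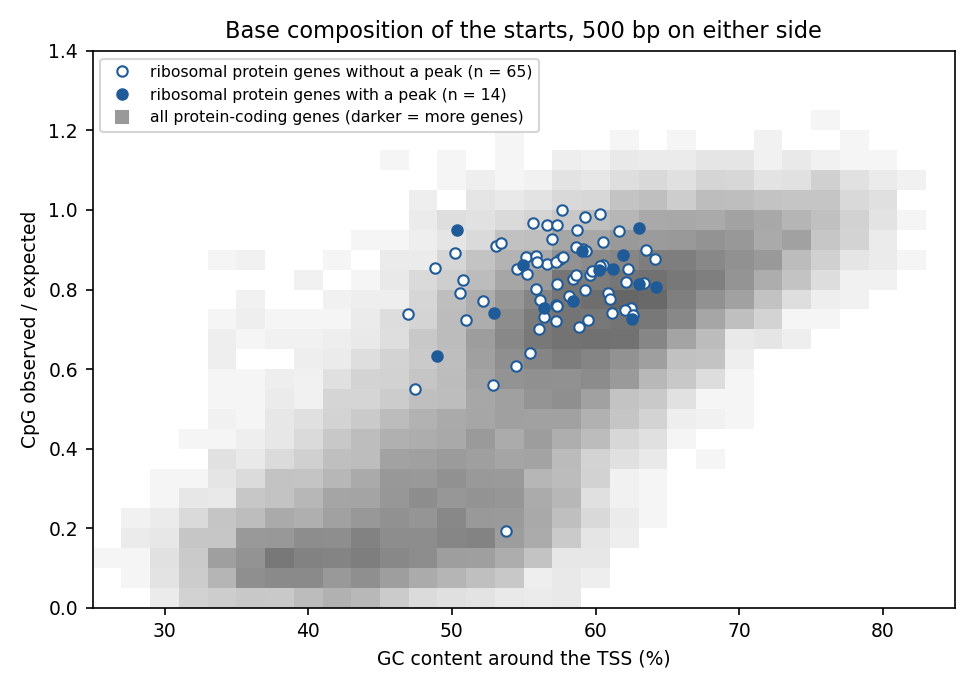
GC content (x axis, in %) and ratio of observed to expected CpG (y axis) in 500 bp on either side of the TSS, with 14 bound (filled) and 65 unbound (open) ribosomal protein genes on top of all protein-coding genes (grey, darker where there are more). Bound and unbound genes share the same area, and Rpl3l lies apart at 0.19.

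A divergent neighbor was present at 13 of the 79 genes, with a protein-coding TSS on the opposite strand at most 1 kb upstream. These pairs were Rpl4 and Zwilch, Rpl7a and Med22, Rpl9 and Lias, Rpl12 and Lrsam1, Rpl15 and Nkiras1, Rpl18 and Sphk2, Rpl35a and Iqcg, Rps2 and Rnf151, Rps18 and Vps52, Rps25 and Trappc4, Rps27 and Rab13, Rps27a and 1700034F02Rik, and Rps28 and Ndufa7. In Rpl13a, a TSS of Flt3l on the same strand lay 15 bp away. A peak was found at 0 of the 13 divergent starts, which allows a share of up to 22.8% by the Wilson interval, and 16.4% of all protein-coding genes with a divergent neighbor had one. With 13 genes this difference is within the counting error. The bound Rpl7 is not among the 13, because the TSS of its neighbor Rdh10 lies just beyond the limit of 1 kb. The Rpl7 peak is 21 bp from that TSS.

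SnoRNA genes lay on the same strand inside 30 of the 79 genes, and 5 of these were bound (16.7%, 7.34 to 33.6%), which is near the share of the whole group. The bound snoRNA hosts were Rpl5, Rpl23a, Rpl32, Rpl37 and Rps20. A C followed by at least 4 pyrimidines, as in a TOP motif, was found at an annotated TSS of 16 of the 79 genes (20.3%) and of 4.04% of all protein-coding genes. Of these 16 genes Rpl24 and Rpl32 were bound (12.5%, 3.498 to 36.02%), against 16.4% of all protein-coding genes with such a start. Annotated starts can be some bases away from the true start, so that TOP motifs can be missed by this count.

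Other genes of protein synthesis had CTCFL peaks at comparable shares. Among 77 mitochondrial ribosomal protein genes, whose products form the separate ribosome of mitochondria, 16 had a peak at the start (20.8%, 13.2 to 31.1%). The closest were those of Mrps2 (-14 bp), Mrps16 (-15 bp), Mrps18b (16 bp) and Mrps33 (-50 bp). A CpG-rich start was present in 53.2% of these genes. The median distance of the 16 midpoints from the TSS was 228.5 bp, against 145 bp in the cytosolic group.

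Of 54 genes with the symbol of an initiation factor (Eif and a number, without the eIF2 kinases), 10 had a peak (18.5%, 10.4 to 30.8%). The choice went by symbol alone, so that genes of related proteins that are not initiation factors are counted too. The closest lay at Eif4a2, an RNA helicase of cap-dependent initiation (8 bp), at Eif2b4 (59 bp), at Eif5b (-60 bp) and at Eif1ad (-61 bp). Of 7 elongation factor genes, Eef1a1 (-248 bp), which delivers aminoacyl-tRNA, and Eef1e1 (356 bp), a scaffold protein of the aminoacyl-tRNA synthetases in spite of its symbol, were bound.

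Of 40 genes of ribosome biogenesis, in which Eif6 is counted as it is among the initiation factors, 8 had a peak (10.5 to 34.8%), with Nol9 (-2 bp), Nol11 (126 bp), Utp3 (-219 bp) and Bms1 (-363 bp) as the closest. Ribosomal protein genes outside the naming rule were few. Of 6 such genes, Fau, Gnb2l1, Rpl22l1 and Rpl36al among them, 1 was bound, Rpl7l1, with a midpoint at -608 bp. The intervals of all these groups overlap with that of the cytosolic ribosomal protein genes.

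CTCFL peaks inside the genes but outside the start interval were found in 5 of the 79 genes. The share of all protein-coding genes with such a peak was not computed, so this count cannot be called high or low. Rpl22 held a pair of them. The wider one (chr4:151706591-151707565, 975 bp) had its midpoint in an exon 7102 bp from the nearest TSS and held a consensus site, and the other (chr4:151702856-151703108, 253 bp) lay in an intron at 3006 bp. The Rps20 gene, already bound at the start, had a further peak at 1485 bp (chr4:3761031-3761623, 593 bp) in an exon, with a consensus site.

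The Rps15 peak at 1023 bp (chr10:79756239-79756587, 349 bp) lay in an exon 446 bp from the end of the gene. It had 74.8% unique windows and held a consensus site. The Rps28 peak at 1667 bp (chr17:33959406-33959843, 438 bp) was in an intron of the annotated gene, and 536 bp from a TSS of Kank3. The Rpl11 peak (chr4:135586965-135587192, 228 bp) lay in an intron of the annotated gene, 21927 bp from the nearest TSS.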

How the data were processed

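CTCFL was immunoprecipitated with V5 antibody from induced, GFP-sorted and from non-induced ES cells, and CTCF with a CTCF antibody, with 1 library each. Reads of 36 bp were mapped by the authors using ELAND. A separate comparative step of theirs used BOWTIE (mm9) and MACS (fdr limit 0.05) and discarded duplicate and multiply mapped reads. The deposited values are the starts and ends of peaks on mm9 in the induced cells. The header states neither the steps nor the threshold that made this list, whose length differs from that of the set of sites described in the study, and it holds no heights or read numbers, so depth is unknown. Binding of CTCF and the non-induced library were not analysed here.

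Starts were shifted to count from 1 and the midpoint of each interval was compared with TSSs of protein-coding transcripts of GENCODE on the same build (NCBIM37). CpG content was taken at every coding TSS, and unique windows and the sequence before the start at the most upstream one. The members and lists were chosen with earlier results of these data known. Bound members were named, except where an item is not reported here, as were the 5 unbound members nearest to a peak, neighboring genes within 1 kb and up to 4 genes per comparison list. Shares carry 95% Wilson intervals. No test was made, with 1 library per condition. The procedures were tested on simulated data. Alternatives changed the interval, the TSSs, the peaks, the genes and the mismatches allowed. Scripts ran under Python 3.11.15 (pysam 0.24.0, numba 0.67.0, numpy 2.4.6, scipy 1.17.1, matplotlib 3.10.9) and samtools 1.23.1.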

Additional observations from a re-analysis of the deposited data

How the results depend on the processing

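No paired analysis was possible because the conditions had 1 library each, and depth per peak is unknown. The share of ribosomal protein genes with a CTCFL peak (17.7%) stayed within its interval under 9 of 12 alternatives. It was 31.6% (25 of 79 genes) within 5 kb on either side of the TSS. It was 8.86% (7 genes) both with peaks at or above the median width and with fully unique peaks. With fully unique peaks the bound genes went from 14 to 7 among the ribosomal protein genes and from 2512 to 2220 among all. For all protein-coding genes (11.2%) the share was 9.24% from 1 kb before to 0.5 kb after the TSS, 15.5% within 5 kb, 11.7% when any base of the peak counted, 10% with the most upstream TSS only, 12% with transcripts of every biotype, 7.51% with the wider peaks, 9.93% with unique peaks, 12.4% with genes of at least 2 exons, 18.9% with CpG-rich starts and 13.2% with unique starts. The share of the ribosomal protein genes was above that of all genes in 9 of the 11 settings computed for both, and below it with unique peaks and with CpG-rich starts (16.1%). The settings on unique peaks, unique starts and CpG-rich starts were chosen after seeing the data. The consensus was found in 7.14% of the 14 peaks without mismatch and in 92.9% with 2 allowed. The median offset (-99.5 bp) was -103 bp with the most upstream TSS and -96 bp with the interval from 1 kb before to 0.5 kb after the TSS.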

Other observations

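Ribosomal protein genes have many processed copies, and some of them are annotated as protein-coding genes with names that mark them as pseudogenes. Of 55 such entries 3 had a CTCFL peak in the start interval (5.45%, 1.87 to 14.85%), against 5.46% of all protein-coding genes without a CpG-rich start, the class to which all 55 belong. These were Rpl21-ps13 with a midpoint at -954 bp, Rpl30-ps6 at -1194 bp and Rps6-ps1 at -1385 bp. All windows of these 3 peaks were unique. A unique sequence around the start was present in 2 of the 55 copies (3.64%) and in 43.0% of the 79 multi-exon ribosomal protein genes. The part of repeated sequence in this count was not tested.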
